A study of Mus musculus with 16 samples.

Results

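SIRT1 chromatin immunoprecipitation peaks of mouse macrophages were compared between p53 knockout and p53 wild type cells. The members were all peaks of the 2 deposited lists on chromosomes 1 to 19 and X. They numbered 59703 in p53 knockout and 56129 in p53 wild type, together 115832 of the 367397 peaks in the 9 lists of the series. A peak was called kept when at least 1 base of it overlapped a peak of the other list. All other peaks are called knockout-only or wild-type-only, words that describe the lists and not the presence of the protein.

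Both libraries came from untreated primary macrophages of C57BL/6 mice, grown out of adult bone marrow for 5 days in medium conditioned with M-CSF, the growth factor of macrophages. They differed by genotype, which the labels give as p53 knock out and wild type, and both used the antibody Sirt1 (CST, 8469S). Of how the knockout was made, of the sex and number of mice and of any pooling of animals, nothing is said in the labels. Each genotype is 1 library, so no test between them was possible, and a difference between genotypes cannot be told apart from a difference between cultures, animals or libraries. SIRT1 lists of Ezh2 knockout and Ezh2 wild type macrophages, made with the same antibody, served as the most similar comparators.

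SIRT1 is an NAD-dependent deacetylase of the nucleus. It removes acetyl groups from histones and from transcription factors, among them p53 itself and the p65 subunit of NF-kB, and it reaches DNA through partner proteins and not through a DNA-binding domain of its own. p53 is a transcription factor that activates genes of cell cycle arrest, apoptosis and DNA repair. In macrophages SIRT1 is known for restraining inflammatory gene expression.

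These 6 promoters lie under peaks at gene starts, and were chosen after the values were seen. For each class they are the first 2 by p-value (for kept places the weaker of the 2 lists), ties in order of name, whose 250 bases before the annotated start lie wholly inside a peak. The sequences are those bases in RefSeq on GRCm38.p6, written along the gene's strand. Capitals mark GGGCGG or its complement CCGCCC, the box that Sp and Klf factors bind.

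Inpp5d, the inositol phosphatase SHIP1 of blood cells, knockout-only, chr1:87620062-87620311, plus strand: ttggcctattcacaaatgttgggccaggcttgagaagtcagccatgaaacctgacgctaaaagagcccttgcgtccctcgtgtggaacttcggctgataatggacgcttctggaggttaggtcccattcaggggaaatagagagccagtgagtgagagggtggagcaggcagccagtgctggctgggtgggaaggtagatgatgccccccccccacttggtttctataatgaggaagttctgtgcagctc
Por, cytochrome P450 reductase, knockout-only, chr5:135688895-135689144, plus strand: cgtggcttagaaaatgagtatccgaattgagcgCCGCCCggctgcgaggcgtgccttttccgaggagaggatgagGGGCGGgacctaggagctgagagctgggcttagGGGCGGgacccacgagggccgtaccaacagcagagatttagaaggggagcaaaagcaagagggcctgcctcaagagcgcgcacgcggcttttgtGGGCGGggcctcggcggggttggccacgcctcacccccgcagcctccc
Camk1d, a calmodulin-dependent kinase, wild-type-only, chr2:5714763-5715012, minus strand: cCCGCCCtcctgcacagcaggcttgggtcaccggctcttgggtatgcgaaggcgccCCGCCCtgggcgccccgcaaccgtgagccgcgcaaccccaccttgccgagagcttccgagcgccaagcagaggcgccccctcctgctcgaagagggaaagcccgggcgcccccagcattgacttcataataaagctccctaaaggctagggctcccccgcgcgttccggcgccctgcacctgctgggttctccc
Sav1, scaffold of the Hippo pathway, wild-type-only, chr12:69987003-69987252, minus strand: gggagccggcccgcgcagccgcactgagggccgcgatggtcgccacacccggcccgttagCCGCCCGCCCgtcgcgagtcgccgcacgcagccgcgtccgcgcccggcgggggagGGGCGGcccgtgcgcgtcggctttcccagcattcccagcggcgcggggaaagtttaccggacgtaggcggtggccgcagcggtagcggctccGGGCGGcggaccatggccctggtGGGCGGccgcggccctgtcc
Akna, an AT-hook protein, kept, chr4:63403446-63403695, minus strand: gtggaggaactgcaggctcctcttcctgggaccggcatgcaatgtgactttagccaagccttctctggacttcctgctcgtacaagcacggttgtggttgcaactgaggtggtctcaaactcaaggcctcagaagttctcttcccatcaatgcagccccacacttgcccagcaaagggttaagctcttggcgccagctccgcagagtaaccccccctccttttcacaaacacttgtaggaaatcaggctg
Ighmbp2, a helicase, kept, chr19:3283011-3283260, minus strand: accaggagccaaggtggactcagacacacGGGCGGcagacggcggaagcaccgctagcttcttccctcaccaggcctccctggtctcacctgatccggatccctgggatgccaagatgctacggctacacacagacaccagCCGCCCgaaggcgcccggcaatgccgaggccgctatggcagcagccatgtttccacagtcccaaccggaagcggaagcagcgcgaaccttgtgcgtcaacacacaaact

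The box had 4 copies at Por, 2 at Camk1d, 5 at Sav1 and 2 at Ighmbp2, overlapping copies included, and none at Inpp5d and Akna. The knockout-only peaks at Inpp5d and Por each had a fold of 4.96 over the local background with 8 fragments at the summit. The wild-type-only peaks at Camk1d and Sav1 each had a fold of 5.06 with 8 fragments. At Akna the fold was 3.86 with 6 fragments in p53 knockout and 4.07 with 6 in p53 wild type. At Ighmbp2 it was 3.86 with 6 fragments in p53 knockout and 3.48 with 5 in p53 wild type. A class thus rested on a handful of fragments even at these promoters. The fold is the deposited value of each peak, used here only to describe peaks.

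Most peaks were small. The summit held 3 to 5 fragments in 90.2% of p53 knockout peaks and 92.6% of p53 wild type peaks, with a median of 4 and a minimum of 3 in each list. The fragment numbers were recovered from the deposited fold and p-value of each peak. A q-value of 0.05 or less was met by 321 p53 knockout peaks (0.538%) and 180 p53 wild type peaks (0.321%). Peaks covered 17.7 Mb in p53 knockout and 16.4 Mb in p53 wild type. Total depth is unknown, because the lists hold no read totals.

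About 1 peak in 20 was kept. Of the p53 knockout peaks 2806 were kept, which is 4.7% (95% Wilson interval 4.53 to 4.87). Of the p53 wild type peaks 2802 were kept, which is 4.99% (4.82 to 5.18). These intervals, and all others given here, cover counting error only. For p53 knockout peaks the kept share was 7.39 times the share of the chromosomes that the other list covers, which is 0.636%. For p53 wild type peaks it was 7.25 times that share, which is 0.689%. A peak can be kept by touching a wide neighbour, and the summit itself lay inside a peak of the other list for 2.79% of p53 knockout peaks and 2.93% of p53 wild type peaks. No peak of the other list lay within 5 kb of 64.4% of p53 knockout peaks and 62.8% of p53 wild type peaks.

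The overlap between the p53 genotypes was of the size seen with other SIRT1 libraries. Of the p53 knockout peaks, 2.20% (2.09 to 2.32) overlapped the Ezh2 knockout list, which has 18087 peaks, and 5.39% (5.21 to 5.57) the Ezh2 wild type list, which has 74346. Of the p53 wild type peaks, 2.24% overlapped the Ezh2 knockout list and 5.24% (5.06 to 5.43) the Ezh2 wild type list. The p53 knockout list thus shared no larger a portion of its peaks with p53 wild type, at 4.7%, than with the longer Ezh2 wild type list. Set against what each list covers, the share of p53 knockout peaks was 7.39 times the cover of p53 wild type, 11.6 times that of Ezh2 knockout and 6.55 times that of Ezh2 wild type. From the other side, 7.30% of Ezh2 knockout peaks met a p53 knockout peak and 7.005% met a p53 wild type peak.

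The kept share climbed with the number of fragments. Among peaks of 3 fragments it was 3.31% in p53 knockout and 3.55% in p53 wild type. Among peaks of 6 fragments it was 7.31% in p53 knockout and 8.57% in p53 wild type. Among peaks of 13 or more fragments, 57 of 88 were kept in p53 knockout (64.8%, 54.4 to 73.9) and 42 of 72 in p53 wild type (58.3%, 46.8 to 69.01). In each list the share was higher at every step up to 13 or more fragments.

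**Figure D1:**
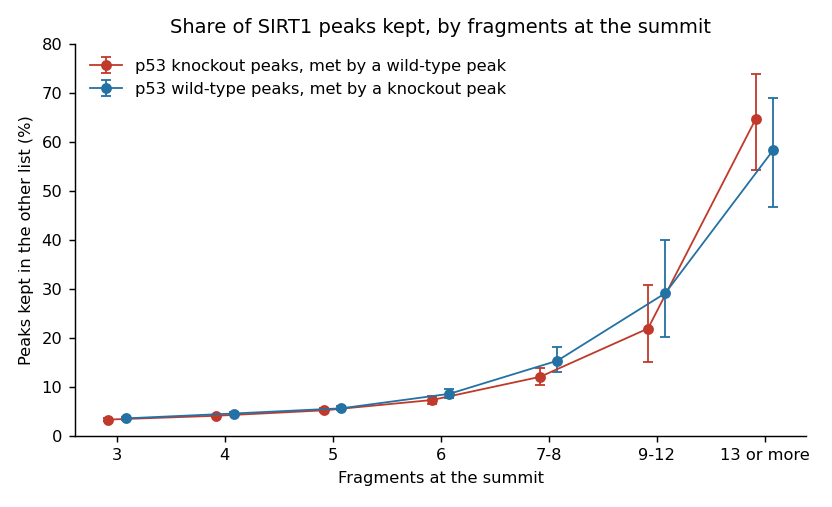
Share of peaks kept (percent, vertical axis) by fragments at the summit (horizontal axis) in the p53 knockout and p53 wild type SIRT1 lists; bars are 95% Wilson intervals for counting error. Both lists climb from under 4% at 3 fragments to 64.8% in p53 knockout and 58.3% in p53 wild type at 13 or more.

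Where peaks were kept, the summits often lay apart. Over 2826 overlapping pairs the median distance between the summits was 140 bp (quartiles 67 to 243), and 37.5% were within 100 bp. The shared stretch had a median of 188 bp, and in 69.5% of pairs it was at least 50% of the shorter peak. Merging both lists gave 113006 places, of which 2782 (2.46%) were kept, 56897 (50.3%) were knockout-only and 53327 (47.2%) were wild-type-only.

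The strongest kept places, ranked by the weaker of their 2 p-values, mostly lay outside gene bodies and had many fragments in each list. The place at chr9:3000959-3001520, nearest to Alkbh8, had 438 fragments in p53 knockout and 415 in p53 wild type, with folds of 3.22 and 8.86 over the background of each list. The place at chr14:124801549-124802205, nearest to Fgf14, had 103 fragments in p53 knockout and 58 in p53 wild type. At chr1:24612883-24616154, nearest to Col19a1, the p53 knockout fold was 7.68 with 70 fragments and the p53 wild type fold was 7.48 with 56 fragments. That place also met peaks of p53 (fold 8.32) and of EZH2 in untreated (5.25) and nigericin-treated (2.83) macrophages. Others of the 10 lay nearest to Lrrc4c, Tmem125, Tmem196, Defb33, H60c and Rny3, with a second place nearest to Col19a1. The place nearest to Lrrc4c lay 1035511 bp from that gene, so a nearest gene names a position here and not a target.

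Among the p53 knockout peaks that were kept and met a q-value of 0.05 or less, 60.6% also overlapped a peak of the Ezh2 knockout list and 69.1% one of the Ezh2 wild type list. Of the corresponding p53 wild type peaks, 68.9% met the Ezh2 knockout list and 70.5% the Ezh2 wild type list. Of those 94 kept p53 knockout peaks, 25 lay in the single megabase from 47 Mb of chromosome 6. Without that megabase the kept share of the whole list was 4.66% in p53 knockout and 4.95% in p53 wild type.

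Kept places inside genes, named here after their values were seen, had fewer fragments. Myo3a, a class III myosin, had a fold of 11.04 with 34 fragments in p53 knockout and 5.11 with 24 in p53 wild type. Cenpo, a kinetochore subunit, had 4.44 with 15 fragments in p53 knockout and 5.26 with 14 in p53 wild type. The places at Myo3a and Cenpo also met p53 peaks, with folds of 3.38 and 3.74. They met EZH2 peaks of untreated (2.89 and 3.48) and nigericin-treated (3.57 and 2.56) macrophages as well, so they were not particular to SIRT1 lists. Fcgr3, a low-affinity receptor for IgG on macrophages, had 6.62 with 20 fragments in p53 knockout and 3.60 with 11 in p53 wild type, and lay in an H3K27me3 peak. Zswim6 had 9.63 with 17 fragments in p53 knockout and 4.65 with 7 in p53 wild type. At Galk2, an N-acetylgalactosamine kinase, the fold was 8.82 with 15 fragments in p53 knockout and 4.07 with 6 in p53 wild type. Peaks at these genes were present in each genotype, with more fragments in p53 knockout at the 5 chosen, and no replicate bears on that difference. Other kept places inside genes had fewer fragments in p53 knockout than in p53 wild type. They included Ide with 7 and 10, Uxs1 with 8 and 10 and Pop1 with 7 and 9.

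The strongest knockout-only peaks with no p53 wild type peak within 5 kb included those nearest to Csf2ra, Wls, Cr2, Asmt, Polr3k, Erdr1, Mogat1, Trak1 and Nek6. The peak nearest to Wls, a carrier of Wnt proteins, lay 877 bp from it and had a fold of 6.02 with 73 fragments. The peak near Csf2ra, a subunit of the GM-CSF receptor, had 6.55 with 71 fragments but lay 102960 bp from that gene. At Mogat1, an acyltransferase of triglyceride synthesis, the fold was 6.07 with 10 fragments. At Trak1, an adaptor for mitochondrial transport, it was 5.89 with 10. The peak nearest to Nek6, a mitotic kinase, had 5.51 with 9 fragments and lay 14930 bp from it. Below the first 5, the peaks of this group held 9 to 13 fragments. Of those named, only the peaks at Trak1 and nearest to Nek6 met no peak of the Ezh2 SIRT1 lists. The place nearest to Csf2ra had 44 fragments in Ezh2 knockout and 32 in Ezh2 wild type, and that nearest to Asmt 42 and 21.

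The strongest wild-type-only peaks under the same rule lay nearest to Alkbh8 (3 peaks), Rpusd4, Ly6c2, Filip1l, Pex2, Zc3h7a and Esp38 (2 peaks). The peak at chr9:3023544-3024603, nearest to Alkbh8, had 507 fragments and a fold of 3.09. The same place had 792 fragments in the Ezh2 knockout and 708 in the Ezh2 wild type SIRT1 list. The peak at chr9:3006691-3006897, also nearest to Alkbh8, had 203 fragments in p53 wild type. On the same stretch lay the kept place at chr9:3000959-3001520, with 438 fragments in p53 knockout. Of the 10, those at Filip1l and nearest to Pex2 met no peak of the Ezh2 SIRT1 lists, and all others did. That nearest to Ly6c2, a surface marker of monocytes, had 166 fragments and a fold of 2.91, and that at Filip1l had 81 fragments and a fold of 4.16. All 10 held 81 fragments or more. Further down came peaks with fewer fragments, chosen after their values were seen. Gphn, the scaffold gephyrin, had a fold of 5.83 with 23 fragments in its body, and a peak 32202 bp from Eea1, a tether of early endosomes, had 7.55 with 12. Fcf1, a factor of ribosome assembly, had 6.18 with 10 fragments over an H3K27ac peak.

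Over whole lists, knockout-only and wild-type-only peaks had similar shares in each kind of place. Each peak was assigned by its summit to a gene start (within 1 kb of one), otherwise to a gene body, to the 10 kb around a gene, or to distal sequence beyond. Gene starts held 6.33% (6.13 to 6.53) of knockout-only peaks and 6.54% (6.33 to 6.75) of wild-type-only peaks. Gene bodies held 57.1% of knockout-only and 57.2% of wild-type-only peaks, and distal sequence 19.7% (19.4 to 20.02) and 19.4% (19.1 to 19.8) of them in that order of classes. Among points spaced every 1 kb over the chromosomes, 2.15% were at gene starts, 46.7% in gene bodies and 35.2% distal. Each class thus had more gene starts and less distal sequence than evenly spaced points. The classes were also drawn anew after both lists were limited to peaks with a q-value of 0.05 or less. Distal sequence then held 9.41% (6.55 to 13.3) of 287 knockout-only and 18.1% (12.8 to 25.1) of 149 wild-type-only peaks. At this limit the distal share was thus higher among wild-type-only peaks, unlike over the whole lists. These intervals overlap only from 12.8 to 13.3, which does not show that the shares agree. The difference was not tested, and the intervals hold no variation between libraries.

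Kept peaks lay at gene starts more often. The share was 17.1% (15.8 to 18.6) for kept p53 knockout peaks and 17.2% (15.8 to 18.6) for kept p53 wild type peaks, and 12.7% of each were distal. Seen by place, 11.8% (10.8 to 12.8) of p53 knockout peaks at gene starts were kept, against 3.08% (2.78 to 3.41) of those in distal sequence. For p53 wild type peaks the shares were 12.1% (11.1 to 13.2) at gene starts and 3.32% (2.999 to 3.68) in distal sequence. The excess was present up to 8 fragments in each list. Among peaks of 4 fragments, 18.5% of kept and 5.55% of knockout-only peaks lay at gene starts in p53 knockout, and 15.96% of kept and 6.01% of wild-type-only peaks in p53 wild type. Among those of 7 to 8 fragments the shares were 19.7% and 14.6% in p53 knockout and 25.4% and 14.9% in p53 wild type. Among those of 9 to 12 fragments it was absent, with 4.35% of kept peaks in each list, 7.32% of knockout-only and 10.7% of wild-type-only peaks. Among the few of 13 or more fragments the shares of kept and single-list peaks were 8.77% and 19.4% in p53 knockout, and 9.52% and 3.33% in p53 wild type, so the lists went opposite ways there. When both lists were limited to peaks of at least 6 fragments, gene starts held 12.1% of knockout-only, 13.04% of wild-type-only and 14.3% of kept peaks. With both lists limited to a q-value of 0.05 or less and the classes drawn anew, gene starts held 16.4%, 12.1% and 8.82% (3.05 to 23.0) of them, the last from 34 kept peaks.

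**Figure D2:**
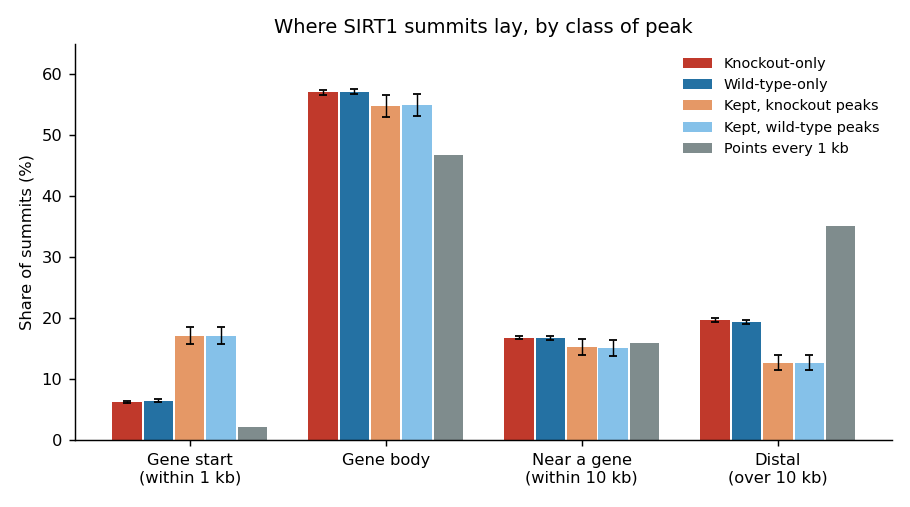
Share of peaks (percent) at gene starts, in gene bodies, within 10 kb of a gene and in distal sequence for knockout-only, wild-type-only and kept peaks, with evenly spaced genome points for comparison; error bars are 95% Wilson intervals. Knockout-only and wild-type-only peaks stand at 6.33% and 6.54% at gene starts, kept peaks near 17%.

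Around gene starts the peaks lay on each side. The 500 bp downstream of a start held 2.15% of knockout-only peaks, 2.40% of wild-type-only peaks, 7.06% of kept p53 knockout peaks and 7.82% of kept p53 wild type peaks, against 0.573% of evenly spaced points. The 500 bp upstream held 1.86%, 1.82%, 5.67% and 5.03% of the same classes, against 0.536% of points.

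**Figure D3:**
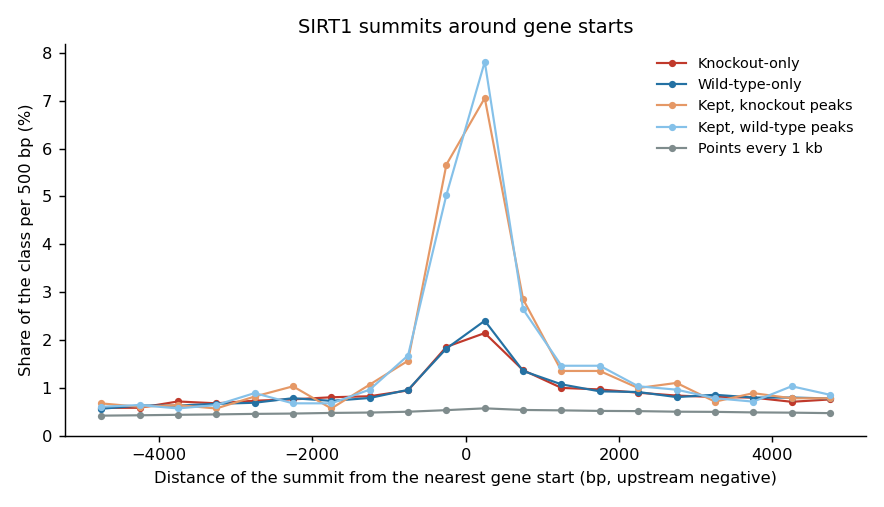
Share of summits (percent, vertical axis) by distance from the nearest gene start (bp, horizontal axis, upstream negative) for knockout-only, wild-type-only and kept peaks and for evenly spaced points. The kept classes peak at the start, with 7.06% of kept p53 knockout and 7.82% of kept p53 wild type summits in the first 500 bp downstream.

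Promoters touched by a peak were rich in CpG. Over 32619 windows running from 250 bases before to 50 after a start, 424 met a kept peak, 1918 a knockout-only peak and 1799 a wild-type-only peak, windows with one of each counting under both. The median GC content was 60.7% in knockout-only windows, 60% in wild-type-only windows and 62.3% in kept windows, and 53% in all windows. The median ratio of observed to expected CpG was 0.725 in knockout-only, 0.712 in wild-type-only and 0.775 in kept windows, against 0.387 in all windows. The box GGGCGG, searched on both strands, was present in 56.7% (54.4 to 58.9) of knockout-only windows, 56.1% (53.8 to 58.4) of wild-type-only windows and 67.0% (62.4 to 71.3) of kept windows, against 35.9% of all windows.

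Other promoter motifs were searched in the same windows. CCGGAAG, a core bound by many ETS factors, was in 15.9% of knockout-only, 17.1% of wild-type-only and 18.9% of kept windows, and in 8.92% of all windows. TATAAA was in 7.35%, 6.78% and 5.43% of the same classes, and in 13.7% of all windows. CCAAT was in 39.5% of knockout-only, 37.6% of wild-type-only and 41.7% of kept windows, and in 37.6% of all windows. The p53 recognition decamer, searched by its degenerate consensus, was in 6.78% of knockout-only, 7.62% of wild-type-only and 8.26% of kept windows, and in 8.36% of all windows. A match describes the letters of a window and is not a bound site.

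Kept peaks were wider. The median width was 306 bp for kept p53 knockout peaks and 297.5 bp for kept p53 wild type peaks, against 256 bp (quartiles 221 to 328) for knockout-only and 251 bp (218 to 322) for wild-type-only peaks. A wider peak meets a neighbour more easily, so the rule for keeping peaks touches this measure. The difference was present at equal fragments, since p53 knockout peaks of 4 fragments had a median width of 295 bp when kept and 253 bp when knockout-only. Peaks over 500 bp made up 17.0% of kept p53 knockout and 16.4% of kept p53 wild type peaks, against 5.18% of knockout-only and 4.54% of wild-type-only peaks. Peaks over 1000 bp were few, with 44 knockout-only and 32 wild-type-only.

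By place, the median width of knockout-only peaks was 280 bp at gene starts and 248 bp in distal sequence. Wild-type-only peaks measured 274 bp at gene starts and 243 bp in distal sequence. The widest knockout-only peaks included those nearest to Stk38l (2282 bp wide, 10313 bp away) and Adamts16 (1478 bp wide, 177222 bp away). Others lay at Hif3a (1766 bp), Lair1 (1366 bp) and Slc45a4 (1317 bp). Lair1 encodes an inhibitory collagen receptor of leukocytes, and Hif3a a hypoxia-inducible factor subunit. The widest wild-type-only peaks lay at Gas5 (1361 bp), a long noncoding RNA gene that hosts snoRNAs, and at Gipc2 (1339 bp), Ttc30a2 (1237 bp), Gga2 (1235 bp) and near Inhbc (1201 bp). The widest kept places lay nearest to Smurf2, Col19a1 and H60c, and at Snx9 and Herc2, a large ubiquitin ligase. The distances were 27061 bp to Smurf2, 27167 bp to Col19a1 and 142346 bp to H60c. The p53 knockout peaks of these places measured 4546 bp for that nearest to Smurf2, 2460 bp at Snx9 and 2026 bp at Herc2.

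Marks of the same cell type, measured in separate libraries, were compared with the classes. H3K27ac, the acetylation of active promoters and enhancers, was met by 12.9% (12.6 to 13.2) of knockout-only and 11.8% (11.5 to 12.1) of wild-type-only peaks, and by 22.6% of kept p53 knockout and 22.9% of kept p53 wild type peaks. H3K27ac peaks cover 2.84% of the chromosomes. H3K27me3, the mark laid down by EZH2, was met by 7.76% (7.54 to 7.98) of knockout-only and 9.03% (8.79 to 9.27) of wild-type-only peaks, with a cover of 4.84%. EZH2 peaks of untreated macrophages were met by 0.626% of knockout-only and 0.814% of wild-type-only peaks, with a cover of 0.253%. Knockout-only peaks thus met H3K27ac more often, and H3K27me3 less often, than wild-type-only peaks by about 1 percentage point each. The intervals do not overlap, but they hold no variation between libraries. In distal sequence H3K27ac was met by 6.92% of knockout-only, 5.81% of wild-type-only, 15.7% of kept p53 knockout and 14.3% of kept p53 wild type peaks.

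SIRT1 peaks of the Ezh2 libraries were met by kept peaks far more often than by the others. The Ezh2 knockout list met 1.82% of each single-list class, and 9.98% of kept p53 knockout and 10.3% of kept p53 wild type peaks. The Ezh2 wild type list met 4.89% of knockout-only and 4.71% of wild-type-only peaks, and 15.6% of kept p53 knockout and 15.3% of kept p53 wild type peaks. A peak in none of the other 7 lists was the rule, at 74.7% of knockout-only and 74.6% of wild-type-only peaks, against 55.0% and 54.6% of kept peaks from the p53 knockout and the p53 wild type list.

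**Figure D4:**
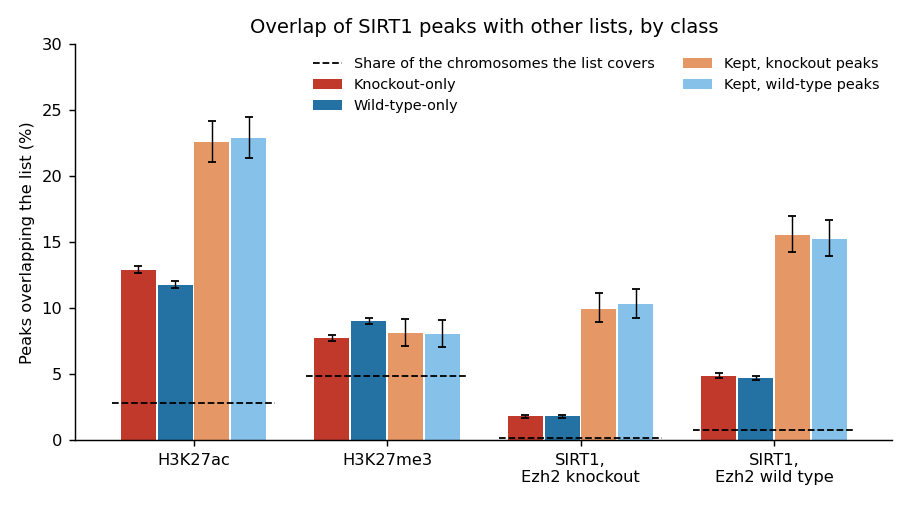
Share of knockout-only, wild-type-only and kept peaks (percent) that overlap H3K27ac, H3K27me3 and the SIRT1 lists of Ezh2 knockout and Ezh2 wild type; error bars are 95% Wilson intervals and dashed lines the share of the chromosomes each list covers. H3K27ac was met by 12.9% of knockout-only, 11.8% of wild-type-only and about 23% of kept peaks.

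The deposited p53 peaks of wild type macrophages gave a direct comparison with the deleted factor. Of 4878 p53 peaks, 70 (1.44%, 1.14 to 1.81) overlapped a SIRT1 peak of p53 knockout and 84 (1.72%, 1.39 to 2.13) one of p53 wild type. The Ezh2 lists met 52 (1.07%) in knockout and 95 (1.95%) in wild type. Of the chromosomes, the SIRT1 lists cover 0.689% in p53 knockout, 0.636% in p53 wild type, 0.190% in Ezh2 knockout and 0.823% in Ezh2 wild type. The strongest p53 peaks met in both p53 genotypes lay nearest to Lrrc4c and Col19a1 and in Vps45 and Myo3a. They also met EZH2 peaks of untreated macrophages. Knockout-only peaks met 55 and wild-type-only peaks met 68. Examples were chosen after their values were seen. A p53 peak in Anapc1, a subunit of the anaphase-promoting complex, met a SIRT1 peak of p53 knockout alone, with a fold of 2.61 and 5 fragments. A p53 peak in Tnfrsf23, a decoy receptor for TRAIL, met one of p53 wild type alone, with 2.31 and 4 fragments, as did one in Ube3a, a ubiquitin ligase, with 3.37 and 5 fragments. The intervals of the p53 genotypes overlap, but both counts are of the same p53 peaks, and the difference in peaks met was not tested.

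The known targets of p53 were described from a list of 31 genes, 30 of them matched to RefSeq. Of the 30, 14 (46.7%) held a knockout-only peak in the gene body and 22 (73.3%) a wild-type-only peak, and none held a kept peak. Over all 21631 protein-coding genes, 51.5% held a knockout-only peak, 50.2% a wild-type-only peak and 7.11% a kept one. By share of genes, the list stood near the background in p53 knockout and above it in p53 wild type. That is a difference of 8 genes between single libraries. Per 100 kb the list stood above all genes in each, with 5.23 knockout-only and 6.84 wild-type-only peaks against 2.97 and 2.79. It also did so in Ezh2 knockout and Ezh2 wild type, with 1.74 and 6.71 peaks per 100 kb against 0.995 and 3.75. In the Ezh2 libraries 8 of the 30 held a peak in Ezh2 knockout and 20 in Ezh2 wild type, where 6366 and 12216 of all 21631 genes did. With peaks of at least 6 fragments alone, 2 of the 30 genes held a knockout-only and 8 a wild-type-only peak, where 12.4% of all genes held a knockout-only and 9.38% a wild-type-only peak. At a q-value of 0.05 or less no gene of the list held either. With bodies widened by 5 kb, 22 held a knockout-only and 26 a wild-type-only peak, where 64.1% of all genes held a knockout-only and 62.9% a wild-type-only peak. So widened, the list stood above all genes in each genotype.

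Among the 30, 3 genes had peaks in p53 knockout and none in p53 wild type, 11 had them in p53 wild type and none in p53 knockout, 11 had them in both and 5 in neither. Bbc3, which encodes the apoptosis inducer PUMA, is a case on the knockout side. It lies at chr7:16308398-16318334 and held 3 knockout-only peaks, with folds of 2.61, 3.31 and 2.61 and 5 fragments each, all over H3K27ac, and no p53 wild type peak in the body. The Ezh2 knockout list also held 2 peaks in the Bbc3 body over H3K27ac, with folds of 4.10 and 4.32 and 7 fragments each. The Ezh2 wild type list held none in the body and 2 within 5 kb. Within 5 kb Bbc3 had 6 p53 knockout peaks and 1 p53 wild type peak. The place of that wild type peak, before the gene and over H3K27ac, was kept, with 2.76 and 4 fragments in p53 knockout and 2.32 and 3 fragments in p53 wild type. Polk, a polymerase that copies across DNA damage, held 4 p53 knockout peaks and none in p53 wild type. Aen, a nuclease of apoptosis, held 2 and none.

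Mdm2, the ubiquitin ligase that degrades p53, is a case on the other side. It lies at chr10:117688875-117710758 and had no p53 knockout peak in its body or within 5 kb. It had 4 p53 wild type peaks, with folds of 2.81, 3.48, 2.32 and 2.77 and 3 to 5 fragments, of which the last lay over H3K27ac. The Ezh2 knockout list held no peak in Mdm2 and the Ezh2 wild type list held 2. Sesn2, a stress-induced sestrin, held no p53 knockout and 4 p53 wild type peaks. Pidd1, a death-domain protein that activates caspase-2, held none in p53 knockout and 3 in p53 wild type, the best with a fold of 4.50 and 7 fragments. Btg2, an antiproliferative gene, held none in p53 knockout and 2 in p53 wild type, the best also with 4.50 and 7 fragments.

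Cdkn1a, which encodes the cyclin-dependent kinase inhibitor p21, had peaks of each class at separate positions. The gene lies at chr17:29090979-29100722. Its knockout-only peak was at chr17:29091604-29092011, close to the start, with a fold of 2.76 and 4 fragments. Its wild-type-only peaks were at chr17:29094846-29095114, with a fold of 4.65 and 7 fragments over H3K27ac, and at chr17:29098532-29098904, with 3.48 and 5 fragments. Beyond the gene's end lay a kept pair, with 3.29 and 8 fragments in p53 knockout and 5.15 and 8 fragments in p53 wild type. In Apaf1, the core of the apoptosome, 4 knockout-only and 7 wild-type-only peaks lay in the body. In Bcl2l1, which encodes the survival protein BCL-XL, they numbered 8 and 7 in the same order of classes. Fas, a death receptor, held 5 knockout-only peaks and 1 wild-type-only peak.

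The deleted gene and the immunoprecipitated protein's own gene were examined next. Trp53, at chr11:69580348-69591873, held no p53 knockout peak in its body and 2 p53 wild type peaks, with folds of 2.32 and 2.90 and 3 and 4 fragments. Within 5 kb lay 3 p53 knockout peaks, each with a fold of 3.31 and 5 fragments. The lists hold no reads, so the deletion itself could not be checked. Sirt1, at chr10:63319005-63339035, held 1 p53 knockout peak, with a fold of 3.31 and 5 fragments, and no p53 wild type peak.

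Regulators and targets of SIRT1 were covered about equally. Of 34 SIRT1 partners and deacetylation targets, 31 held a knockout-only and 29 a wild-type-only peak, and 3 held a kept one. Over all genes the shares were 51.5%, 50.2% and 7.11%. The 34 genes had a median length of 40.1 kb, where all genes had 17.3 kb. The peaks numbered 105 knockout-only and 109 wild-type-only, or 4.50 and 4.68 per 100 kb of gene, where all genes had 2.97 and 2.79. Srebf1, the sterol-regulated transcription factor, had a kept peak at its start with a fold of 4.96 and 8 fragments in p53 knockout and, as the best in p53 wild type, a kept peak in its body with 4.07 and 6 fragments. Map1lc3b, which encodes the autophagosome protein LC3B, had a best fold of 4.41 in p53 knockout and 2.90 in p53 wild type. Stk11, the kinase LKB1, held 2 knockout-only peaks and no wild-type-only peak, and Atg7, an autophagy enzyme, held 14 and 13.

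Of 20 sirtuin and NAD genes, 18 (90%) held a knockout-only and 14 (70%) a wild-type-only peak, where all genes stood at 51.5% and 50.2%. Per 100 kb they had 5.10 and 4.69 peaks, where all genes had 2.97 and 2.79. Nampt, the enzyme that makes the NAD precursor in salvage, held 2 of each class. Nmnat3, a mitochondrial NAD synthase, held 4 knockout-only and 8 wild-type-only peaks, and Sarm1, an NAD hydrolase, 5 and 1. At the start of Sirt2, another sirtuin, the fold was 3.31 with 5 fragments in p53 knockout and 4.07 with 6 in p53 wild type. Sirt6, a nuclear sirtuin, held a knockout-only peak at its start, with 3.86 and 6 fragments, and no p53 wild type peak.

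Of 30 genes of NF-kB and the response to LPS, 20 (66.7%) held a knockout-only, 17 (56.7%) a wild-type-only and 4 (13.3%) a kept peak, where all genes stood at 51.5%, 50.2% and 7.11%. Per 100 kb they had 5.55 knockout-only and 5.98 wild-type-only peaks, where all genes had 2.97 and 2.79. Nfkb1, which encodes the p105 and p50 subunit, held 8 knockout-only and 9 wild-type-only peaks and 1 kept peak. Ly96, the coreceptor MD-2 of TLR4, had a kept p53 knockout peak of 2.21 with 3 fragments and a best p53 wild type peak of 4.50 with 7. At Traf6, a ubiquitin ligase of Toll-like receptor signalling, the best p53 knockout peak had 3.31 with 5 fragments, and the best p53 wild type peak had 4.50 with 7 at the gene start. Ccl4, a chemokine, held 1 knockout-only and 3 wild-type-only peaks, and Map3k7, the kinase TAK1, held 1 and 4.

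Of 23 inflammasome and pyroptosis genes, 15 (65.2%) held a knockout-only, 14 (60.9%) a wild-type-only and 4 (17.4%) a kept peak, or 4.33 knockout-only and 4.22 wild-type-only peaks per 100 kb. All genes stood at 51.5%, 50.2% and 7.11%, with 2.97 knockout-only and 2.79 wild-type-only peaks per 100 kb. Nlrp3, the sensor activated by nigericin, lies at chr11:59541569-59566955. It held 2 p53 knockout peaks, with folds of 2.21 and 3.86 and 3 and 6 fragments, and 1 p53 wild type peak, with 3.48 and 5 fragments over H3K27ac. Casp1, the protease that matures interleukin-1 beta, held 1 knockout-only peak at its start, with 3.86 and 6 fragments, and none in p53 wild type. Gsdmd, the pore-forming gasdermin, held a kept peak, at chr15:75865468-75865684 with 3.31 and 5 fragments in p53 knockout and at chr15:75865590-75865791 with 2.32 and 3 in p53 wild type. Il1b held none in either genotype. Nlrp1b, another inflammasome sensor, held 1 knockout-only and 6 wild-type-only peaks.

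Genes of the type I interferon response, 18 of 20 of them matched, held 22 knockout-only and 10 wild-type-only peaks, or 7.11 and 3.23 per 100 kb, where all genes had 2.97 and 2.79. A knockout-only peak was present in 10 genes (55.6%) and a wild-type-only peak in 7 (38.9%), where all genes stood at 51.5% and 50.2%, so the share of genes with a knockout-only peak was near the background. By genes, 6 had peaks in p53 knockout alone, 3 in p53 wild type alone, 4 in both and 5 in neither. Ddx58, the RNA sensor RIG-I, held 3 p53 knockout peaks, the best with 4.96 and 8 fragments, and none in p53 wild type. Ifit3, an interferon-induced antiviral gene, held 2 p53 knockout peaks and none in p53 wild type, as did Stat2, which carries the interferon signal to the nucleus, and Oas1a, a synthase of the RNase L activator. Ifnar1, a receptor subunit, held 4 knockout-only peaks and 1 wild-type-only peak. The other subunit Ifnar2 had its best peak in p53 wild type, with 5.23 and 8 fragments, against 3.86 and 6 in p53 knockout. The Ezh2 lists held 10 peaks in knockout and 18 in wild type in the same 18 genes. That is 3.23 and 5.82 per 100 kb, where all genes had 0.995 and 3.75 in those lists. With at least 6 fragments the counts were 2 genes with a knockout-only and 1 with a wild-type-only peak, where 12.4% and 9.38% of all genes had them. With bodies widened by 5 kb they were 11 and 14, where all genes stood at 64.1% and 62.9%, so the order of the classes turned.

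**Figure D5:**
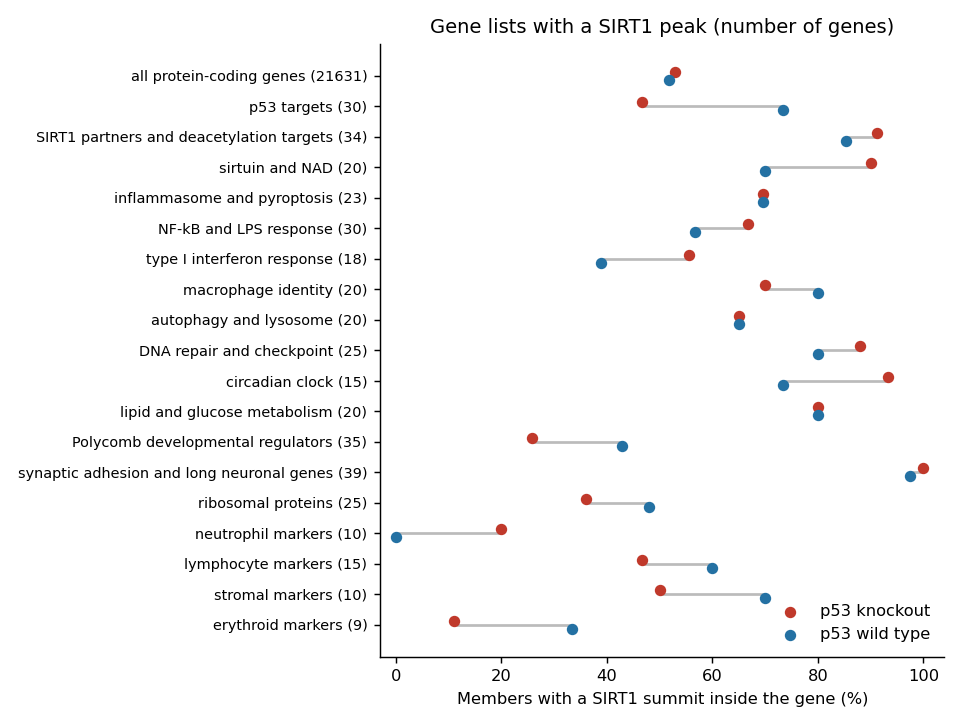
Share of the genes of each list (percent, horizontal axis; number of genes in brackets) with any SIRT1 summit inside the gene in p53 knockout (red) and p53 wild type (blue), kept peaks included. The p53 targets stand at 14 of 30 genes in p53 knockout and 22 of 30 in p53 wild type, where all 21631 protein-coding genes stand at 11428 and 11194.

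Of 25 genes of DNA repair and checkpoints, 21 held a knockout-only, 19 a wild-type-only and 5 a kept peak, against 51.5%, 50.2% and 7.11% of all genes. These genes are long, with a median of 52.5 kb against 17.3 kb for all genes. They held 77 knockout-only and 59 wild-type-only peaks, or 3.40 and 2.61 per 100 kb, where all genes had 2.97 and 2.79. Brca1, the recombination factor, held 4 knockout-only, 2 wild-type-only and 2 kept peaks, with best folds of 4.41 in p53 knockout and 3.48 in p53 wild type. Atm, the kinase that signals double-strand breaks to p53, held 2 knockout-only and 3 wild-type-only peaks, with best folds of 4.28 and 3.37 in p53 knockout and p53 wild type.

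Over all genes, 51.5% held a knockout-only and 50.2% a wild-type-only peak, with 2.97 and 2.79 peaks per 100 kb. Autophagy and lysosome genes held 63 knockout-only and 52 wild-type-only peaks, or 6.33 and 5.22 per 100 kb, in 13 of 20 genes (65%) each. Tfeb, the master regulator of lysosome genes, held 9 and 6 of them. Of 15 clock genes, 14 (93.3%) held a knockout-only and 11 (73.3%) a wild-type-only peak, with a density of 3.54 and 3.06 per 100 kb. Clock genes had a median length of 37.7 kb, where all genes had 17.3 kb. Arntl, the clock activator BMAL1, had a best peak at its start in each genotype, with 3.86 in p53 knockout and 3.94 in p53 wild type, each with 6 fragments. Of 20 genes of lipid and glucose metabolism, with a median length of 37.9 kb, 16 (80%) held a peak of each single-list class. Their density was 3.95 knockout-only and 3.55 wild-type-only peaks per 100 kb. Cpt1a, the entry enzyme of mitochondrial fatty acid oxidation, had a start peak of 4.82 with 8 fragments in p53 knockout and a best peak of 3.48 with 5 in p53 wild type. Abcg1, a cholesterol exporter, held 5 knockout-only and 2 wild-type-only peaks, and Abca1, another, 11 and 9.

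Gene length set the scale of these counts. Genes with a knockout-only peak but no wild-type-only or kept peak numbered 3090, with a median length of 16.1 kb. Genes with a wild-type-only peak but no knockout-only or kept peak numbered 2852, with a median of 15.3 kb. The 7869 genes with both single-list classes had a median of 49.2 kb, and the 7351 genes with none of the 3 classes one of 4.90 kb. Of the genes with a knockout-only peak 70.6% also had a wild-type-only peak, and 72.4% the other way round. For these counts a kept gene is one with a kept p53 knockout peak. The longest list, synaptic and long neuronal genes, held 457 knockout-only and 432 wild-type-only peaks in 39 genes, but only 0.90 and 0.85 per 100 kb. Fhit, a very long fragile-site gene, held 22 and 19 of these. Short ribosomal protein genes held 8 and 12 peaks in 25 genes, or 8.41 and 12.6 per 100 kb. Polycomb developmental regulators held 18 of each class in 35 genes, or 2.14 per 100 kb from each side.

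Single long genes differed more widely in either direction. These were chosen after their values were seen, as extremes over all genes. Gas7, a growth arrest-specific gene, held 23 knockout-only and 8 wild-type-only peaks, Prkg1, a cGMP-dependent kinase, 24 and 9, and Smyd3, a lysine methyltransferase, 21 and 8. Camta1, a calmodulin-binding transcription activator, held 15 knockout-only and 30 wild-type-only peaks, Tenm4, a teneurin, 13 and 28, and Dennd1a, an endosomal exchange factor, 13 and 24. Extremes of similar size stood on each side, none has a replicate, and the cause of these differences was not tested.

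The labelled cell type was checked against marker lists. H3K27ac peaks of the macrophage library lay at the start of 12 of 20 macrophage genes, 1 of 10 neutrophil, 1 of 15 lymphocyte, 1 of 10 stromal and none of 9 erythroid genes. The SIRT1 lists do not measure expression. Macrophage genes held a knockout-only peak in 13 and a wild-type-only peak in 15 of 20, with 59 and 62 peaks, or 6.01 and 6.32 per 100 kb. All genes stood at 51.5% and 50.2%, with 2.97 and 2.79 peaks per 100 kb. Spi1, the macrophage factor PU.1, had a best fold of 4.34 with 9 fragments in p53 knockout and 5.23 with 8 in p53 wild type, and Cd68, a lysosomal protein of macrophages, held 1 kept peak, with 4.41 and 7 fragments in p53 knockout and 3.37 and 5 in p53 wild type. Lymphocyte genes held 7 knockout-only and 21 wild-type-only peaks, of which Pax5, the B cell factor, accounted for 1 and 9, and Cd3g, a T cell receptor chain, for none and 1. Neutrophil genes held 2 knockout-only peaks (Cxcr2 and Mpo) and no wild-type-only peak, stromal genes 12 and 20, and erythroid genes 1 and 3. Per 100 kb the knockout-only and wild-type-only densities were 3.43 and 0 in neutrophil, 1.90 and 5.71 in lymphocyte, 2.10 and 3.51 in stromal and 0.927 and 2.78 in erythroid genes, each below that of the macrophage genes.

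At gene starts the lists named partly the same genes. A knockout-only peak lay at a start of 2871 protein-coding genes (13.3%), a wild-type-only peak at a start of 2846 (13.2%) and a kept peak at a start of 477 (2.21%). Genes with both single-list classes at a start numbered 512, which is 17.8% of the knockout-only and 17.99% of the wild-type-only genes. H3K27ac marked a start in 42.5% of knockout-only, 39.99% of wild-type-only and 46.96% of kept genes, against 20.6% of all genes.

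Along the chromosomes the lists ran in parallel. The p53 knockout list held 1.06 times as many peaks as the p53 wild type list, with autosomes between 0.950 (chromosome 18) and 1.202 (chromosome 10). Chromosome X held 412 p53 knockout and 356 p53 wild type peaks, or 2.46 and 2.12 per Mb, against 18.7 to 32.9 per Mb in p53 knockout and 17.3 to 32.4 per Mb in p53 wild type on the autosomes. Over 2572 bins of a megabase the median was 18 peaks in p53 knockout and 17 in p53 wild type. The counts correlated across bins with Pearson's r of 0.914, as a description, since bins share gene density and library. The r with the Ezh2 wild type list was 0.910 for p53 knockout and 0.924 for p53 wild type.

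A few bins stood out after the values were seen. The bin from 83 Mb of chromosome 11 held 74 peaks in p53 knockout and 34 in p53 wild type, that from 87 Mb of the same chromosome 67 and 28, and that from 34 Mb of chromosome 17 93 and 58. In the other direction, the bin from 5 Mb of chromosome 19 held 70 p53 knockout and 105 p53 wild type peaks. It contains Neat1, the noncoding RNA scaffold of paraspeckles, at chr19:5824708-5845480, with 2 p53 knockout and 4 p53 wild type peaks inside.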

How the data were processed

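Sonicated chromatin was immunoprecipitated and sequenced, per the labels' protocols. Peaks were called with MACS2, and deepTools was used, on GRCm38/mm10, per the submitters' processing notes. Their versions, the aligner and any filtering of reads: not given in the sources used here. Each deposited list gives its peaks a fold (a ratio of summit fragments to local background, each with a pseudocount of 1), a −log10 p, a −log10 q and a score, all from the authors' caller. The deposited score repeats the −log10 values and was not used for results. The smallest −log10 p was near 2, a p limit of 0.01. Each library was called alone, with 1 library per group, and depth is unknown.

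From these, fragments at each summit were solved from fold and p (tolerance 0.001 for a whole number, 1 peak in each list unresolved). Overlap, location, width and gene counts were computed with Python 3.11.15, numpy 2.4.6, pandas 2.3.3 and scipy 1.17.1, drawn with matplotlib 3.10.9, and tested on simulated data. Genes, starts and sequences came from RefSeq tables of GRCm38.p6, 49554 genes of which 21631 code for protein. Shares carry 95% Wilson intervals. The study's 16 samples are 9 immunoprecipitations and 7 inputs.

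Named genes were 11 chosen by name, the genes holding or nearest to the 10 strongest peaks of each class, up to 4 members of each of 18 lists by smallest p, and the 5 widest peaks of each class, passing over genes without a formal symbol. A few genes that this rule names are not reported here. Members and lists were chosen with earlier results of these data known.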

Additional observations from a re-analysis of the deposited data

How the results depend on the processing

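No paired analysis was possible because each genotype has 1 library and the groups share no numbered pairs. The kept share depended on the definition. For p53 knockout and p53 wild type it was 10.6% and 17.2% at q of 0.05 or less in both lists, 30.6% and 43.8% at −log10 q of 5 or more, 3.28% and 3.49% with 50% of the shorter peak shared, and 9.11% and 9.72% with peaks within 500 bp counted. It was 4.79% and 4.78% with lists of equal length. Added after the data were seen, it was 2.88% and 3.99% with at least 6 fragments and 1.78% and 1.89% with summits within 100 bp. Autosomes alone and leaving out the chromosome 6 megabase moved neither share beyond its interval, and no region had a peak in all 9 lists.

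For knockout-only, wild-type-only and kept peaks, protein-coding genes alone put 50.2%, 50.02% and 49.2% in gene bodies and 32.5%, 32.7% and 22.7% in distal sequence. Distal sequence beyond 50 kb held 6.26%, 5.89% and 2.57%. At q of 0.05 or less gene bodies held 54.0%, 49.7% and 26.5%, and distal sequence 9.41% of knockout-only and 18.1% of wild-type-only peaks. With at least 6 fragments gene bodies held 55.1%, 54.7% and 44.0% and distal sequence 15.7%, 14.9% and 18.5%. Median widths at q of 0.05 or less were 347, 334 and 547.5 bp, and kept peaks sharing 50% of the shorter had 320 bp.

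With bodies widened by 5 kb, 22 p53 targets held a knockout-only and 3 a kept peak, and 14 interferon genes held a wild-type-only and 2 a kept peak. At q of 0.05 or less the 382 genes of all lists held knockout-only peaks in 4, wild-type-only in 2 and kept in 0. The p53 targets then had 0 of each single-list class and the interferon genes 1 of each. With at least 6 fragments all lists had 72 knockout-only, 61 wild-type-only and 1 kept, the p53 targets 2 and 8, and the interferon genes 2 and 1. For the single-list classes, the shares of all genes with widened bodies and with at least 6 fragments stand above. None is given for kept peaks or at q of 0.05 or less, so those counts are not read against a background. The cause of the changes between settings was not tested. Most peaks rest on 3 to 5 fragments, and 1 library a side gives no measure of variation between cultures.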
